A study of Bos taurus with 32 samples.

Results

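The miR-17-92 cluster and its paralogs were measured in fat tissue of steers fed a control or a high fat diet. The 10 members were picked by name among the bovine miRNAs of the array (13440 spots, 20 per miRNA), of which 295 were detected on at least 1 array: bta-miR-17-5p, bta-miR-18a, bta-miR-19a, bta-miR-20a, bta-miR-19b and bta-miR-92 (miR-92a) of the cluster itself, and bta-miR-106, bta-miR-93, bta-miR-25 and bta-miR-92b as paralogs. All 10 were among the 233 miRNAs that were tested, and 2 of them, bta-miR-92 and bta-miR-25, were detected on all 32 arrays.

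The 16 animals were yearling Hereford × Aberdeen Angus cross steers of like body weight. Of these, 8 received the control diet and 8 a diet in which flaxseed raised the fat content, and at slaughter each animal gave a sample of backfat, the subcutaneous depot, and 1 of perirenal fat, the visceral depot. This gave 4 groups of 8 arrays, with 1 array per animal and depot and no pooling: control diet subcutaneous, high fat diet subcutaneous, control diet visceral and high fat diet visceral. The labels give no treatment other than the diet, and the comparison asks whether dietary fat and depot alter miRNA levels in adipose tissue.

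MiRNAs are short RNAs that pair with messenger RNAs through a few bases near their 5′ end, the seed, and lower the output of those messengers. The miR-17-92 cluster is cut from 1 primary transcript, so its members share transcription but not processing or decay, and it is known for driving cell proliferation, for its overexpression in lymphoma and for speeding the differentiation of preadipocytes. Its members fall into families by seed: the miR-17 family represses cell cycle inhibitors such as CDKN1A, and miR-92 is known for restraining vessel growth. According to RefSeq names (assembly ARS-UCD2.0, used for names and neighbours only, since the array was designed on another build), the 10 members matched 12 hairpin genes. On chromosome 12 the order was MIR17, MIR18A, MIR19A, MIR20A, MIR19B and MIR92A-1. On chromosome X, MIR363, MIR92A-2, MIR19B-2, MIR20B, MIR18B and MIR106A lay next to each other, so that bta-miR-19b and bta-miR-92 could come from either place. MIR106B, MIR93 and MIR25 lay inside MCM7, the gene of a replicative helicase subunit, on chromosome 25, and MIR92B stood alone on chromosome 3.

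Values are log2 intensities after each array was divided by its 75th percentile over the 91 miRNAs detected on all arrays, and a value below the common floor of -7.22 was set to it. A miRNA passed the test at a Benjamini-Hochberg adjusted p under 0.05 over the 233 miRNAs in limma. The high fat arrays were brighter: the median summed miRNA intensity was 200545 on high fat and 36984 on control arrays, a ratio of 5.42, against 0.847 for the spike-in RNAs added at labelling. Each group sat on 1 slide of its own and each diet was scanned on 1 day of its own, so slide and scan day cannot be told apart from diet, nor slide from depot. All diet differences below are therefore relative to the scaling. Over the 233 miRNAs the median difference was 0.10 (subcutaneous) and 0.17 (visceral), and became 2.48 and 1.68 without scaling, 2.60 and 2.08 with the labelling spike-ins, 1.77 and 1.43 with scaling to bta-miR-181a (the reference of the study), -2.43 and -2.08 with the 75th percentile over all miRNAs of the array, and -1.92 and -1.64 with the normexp background correction (offset 50). In bulk tissue, fewer cells of a type and less RNA per cell cannot be told apart.

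On the high fat diet, the 7 members with the miR-17, miR-18 and miR-19 seeds rose in both depots. Bta-miR-92 and bta-miR-92b fell, and bta-miR-25 did not pass the test. Without scaling and with the labelling spike-ins bta-miR-92 was higher instead, though not called in visceral fat without scaling. With the spike-ins bta-miR-92b lost its call in subcutaneous fat. With normexp 5 of the 7 were called lower. With the percentile over all miRNAs of the array 2 had negative differences, which were not called. The study's quantitative PCR, relative to bta-miR-181a, went the other way for miR-92a and miR-92b. It gave both as higher on the high fat diet, and the study listed both as divergent from its array. MiR-19a and miR-106 were higher by that PCR too, and there the study found PCR and array alike. In subcutaneous fat 9 of 10 members were called, where 76.0% of all tested miRNAs were: 7 rose (41.6% of all rose) and 2 fell (34.3% of all fell). In visceral fat 9 of 10 were called as well (71.7% of all), 7 up (42.1% of all) and 2 down (29.6% of all). Of all calls, 54.8% and 58.7% were rises under the main scaling, from 12.6% and 12.8% with normexp to 99.5% and 99.4% with the labelling spike-ins. The 10 members had a median difference of 2.36 (subcutaneous) and 2.39 (visceral), against 0.10 and 0.17 for all tested miRNAs. The members were chosen with a split of the seeds by diet in view, so these counts describe them and are no independent evidence. Bta-miR-18a, bta-miR-19a and bta-miR-106 were detected on high fat arrays only and entered the test through them. With control arrays at the floor, the direction of their difference was fixed in advance.

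**Figure D1:**
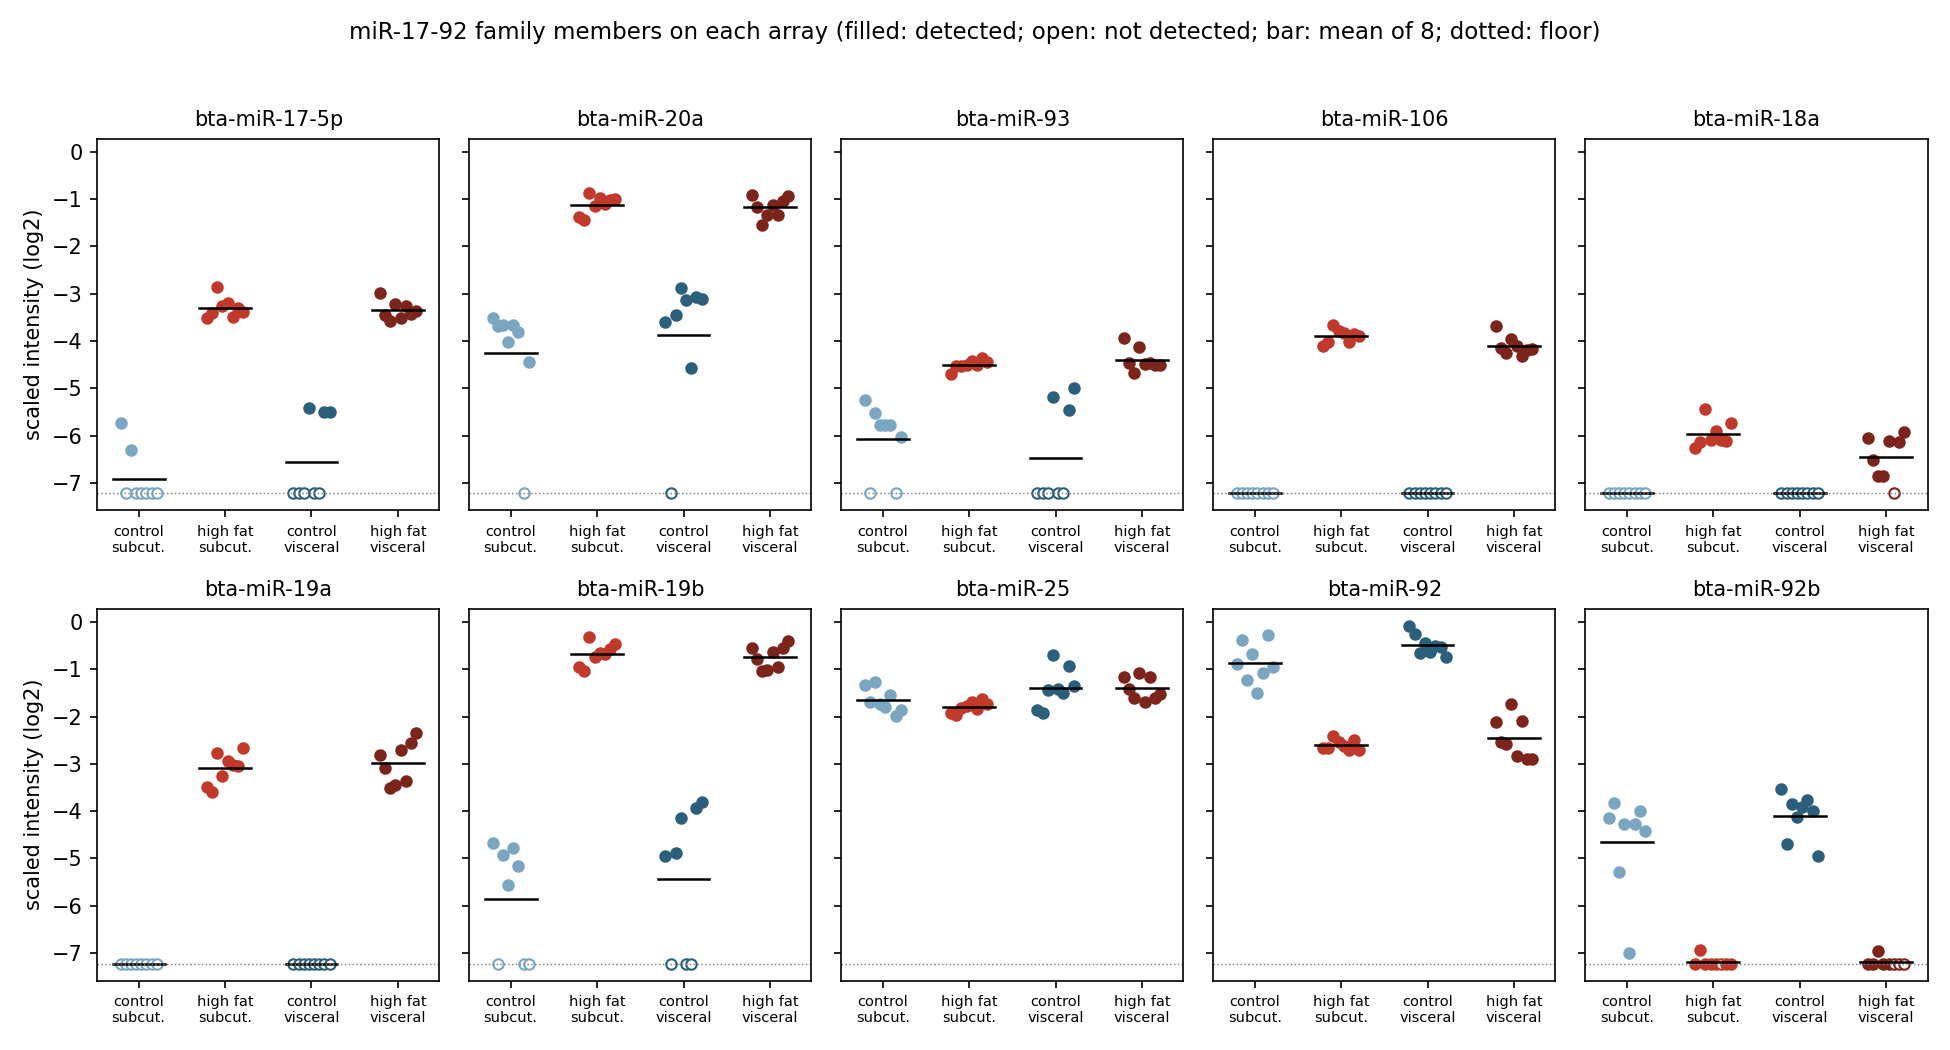
Scaled log2 intensity of the 10 members (panels) on each of 32 arrays, by diet and depot; filled points were detected, open points were not, bars are means of 8 arrays and the dotted line is the floor of -7.22. The 4 left panels of the upper row share the miR-17 seed, bta-miR-18a, bta-miR-19a and bta-miR-19b follow, and the last 3 panels are the miR-25/92 seed, in which high fat arrays were level with control arrays (bta-miR-25) or lower (bta-miR-92 and bta-miR-92b) under this scaling.

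The miR-17 seed was represented by bta-miR-17-5p, bta-miR-20a, bta-miR-93 and bta-miR-106. Bta-miR-20a was detected on 7 of 8 control arrays in each depot. Its scaled level in subcutaneous fat ranged from -7.22 to -3.51 around a median of -3.75 on the control diet, and from -1.44 to -0.87 around -1.06 on the high fat diet. The groups did not overlap, and the lowest value was the 1 array without detection. The difference was 3.14 (standard error 0.468, adjusted p = 5.28e-07, limma), and in visceral fat, where control arrays ran from -7.22 to -2.87 and high fat arrays from -1.54 to -0.91, it was 2.71 (standard error 0.468, adjusted p = 5.45e-06). Before scaling, the detected control arrays had intensities of 13.4 to 37.7 in subcutaneous fat and the high fat arrays 487 to 1404.

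Bta-miR-17-5p, which gives the cluster its name, was detected on 2 control subcutaneous and 3 control visceral arrays and on all 16 high fat arrays. Its intensity was at most 6.03 where detected in control subcutaneous fat and ran from 125 to 287 on the high fat diet. The visceral arrays showed the same separation, with at most 6.65 against 62.5 to 201. On the scaled values it was higher by 3.63 (standard error 0.272, adjusted p = 3.02e-13) and by 3.22 in the visceral depot (adjusted p = 5.44e-12). Most control values were not detected. The rise was therefore also computed with each control array at the higher of its own limit and its own value. It was then 7.85-fold in subcutaneous and 4.45-fold in visceral fat. On all 5 control arrays that detected bta-miR-17-5p the deposited total held only 1 of its 2 probes, against both on the 16 high fat arrays, so these folds are no lower bound. The same calculation for bta-miR-20a, with 1 control array undetected in each depot, gave 7.28-fold and 5.50-fold. The passenger strand of the same hairpin, bta-miR-17-3p, was detected on no control array and on all 16 high fat arrays. It rose 1.64-fold and 1.13-fold in the same calculation. An own limit is the lowest detected intensity of any miRNA on the array. An undetected value may lie above it, so folds from own limits are no lower bounds.

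Bta-miR-106 of the X-linked copy was detected on none of the 16 control arrays and on all 16 high fat arrays. Its high fat intensities were 81.6 to 196 in subcutaneous and 31.4 to 134 in visceral fat. With control arrays at their own limits it was 6.09-fold and 3.77-fold higher. The fitted differences were 3.32 (adjusted p = 1.35e-26) and 3.12 (adjusted p = 8.53e-26). Their standard error of 0.0749 is too small, since control arrays all at the floor add no spread. Bta-miR-93 of the MCM7 locus was detected on 6 control subcutaneous and 3 control visceral arrays, at 3.98 to 10.4, and on all high fat arrays, at 28.2 to 137. Its fitted rise in each depot was the smallest of the miR-17 seed: 1.57 (standard error 0.320, adjusted p = 5.93e-05) and 2.08 (adjusted p = 8.90e-07), or 2.10-fold and 2.02-fold with undetected values at their array's own limit. Bta-miR-93 has 2 probes on the array, and on all 9 control arrays that detected it the deposited total left out the dimmer of them, as it did on 7 of 16 high fat arrays.

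Bta-miR-18a is the member nearest to the detection limit. It was detected on no control array, on all 8 high fat subcutaneous arrays (intensity 18.8 to 41.6) and on 7 of 8 high fat visceral arrays (8.26 to 32.9). The fitted differences were 1.25 (adjusted p = 1.86e-09) and 0.76 (adjusted p = 1.19e-05). Their standard error of 0.139 is too small here as well, since control arrays all at the floor add no spread. With undetected values at their array's own limit it was 1.45-fold higher in subcutaneous fat. The high fat values there, at -6.27 to -5.44 after scaling, lay within the range of the control arrays' own limits, -7.34 to -5.00. In visceral fat no such fold is given, because only 7 of 8 high fat arrays detected it. With every undetected value at its array's limit the visceral difference was -0.41 (adjusted p = 0.213).

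The miR-19 seed had the greatest fitted rises among the members. Bta-miR-19b was detected on 5 of 8 control arrays in each depot, at intensities of 4.61 to 15.8 in subcutaneous and 4.73 to 21.5 in visceral fat, and on all high fat arrays, at 641 to 1892 and 324 to 1488. The scaled control values reached at most -4.67 and -3.81, and the high fat values were no lower than -1.04 and -1.03, so neither pair of groups overlapped. The difference of 5.17 (standard error 0.477, adjusted p = 3.10e-11) in subcutaneous fat and of 4.68 (adjusted p = 2.81e-10) in visceral fat rests in part on the 3 control arrays per depot placed at the floor. With these at their own limits the rise was 25.2-fold and 15.7-fold. On 9 of the 10 control arrays that detected it the total held only 1 of its 2 probes, and on all 16 high fat arrays both, so these folds are no lower bound either. Bta-miR-19a was detected on no control array and on all 16 high fat arrays, at 109 to 351 and 61.3 to 351. With control arrays at their own limits it was 10.6-fold and 8.21-fold higher (fitted differences 4.13 and 4.25).

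Detection on all 8 high fat and no control array of a depot was seen for 3 members in subcutaneous fat (bta-miR-18a, bta-miR-19a and bta-miR-106), where 6.10% of all miRNAs of the array showed it, and for 2 in visceral fat (bta-miR-19a and bta-miR-106), where 2.53% did. Of the 10 members, 7 lay wholly above their control group in subcutaneous fat (33.0% of the tested miRNAs did) and 6 in visceral fat (28.3%), while 1 lay wholly below it in subcutaneous fat (19.7% did) and 2 in visceral fat (18.0%). The members with overlap were bta-miR-25 and bta-miR-92b in subcutaneous fat, and bta-miR-25 and bta-miR-18a, with 1 high fat array at the floor, in visceral fat. For bta-miR-18a, bta-miR-19a and bta-miR-106 all control arrays stood at the floor, so high fat values above it lay apart by construction. For bta-miR-18a in subcutaneous fat the control arrays' own limits reached -5.00, above its highest high fat value of -5.44, so a separation is not shown.

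The miR-25/92 seed held bta-miR-92, bta-miR-25 and bta-miR-92b. Bta-miR-92 was detected on every array. Its scaled level in subcutaneous fat was -1.50 to -0.28 (median -0.92) on the control diet and -2.71 to -2.42 (median -2.64) on the high fat diet. The visceral levels were -0.73 to -0.07 (median -0.51) and -2.89 to -1.74 (median -2.55). The groups overlapped in neither depot, and the scaled difference was -1.73 (standard error 0.163, adjusted p = 4.35e-11) for the subcutaneous and -1.98 (adjusted p = 2.80e-12) for the visceral depot. Its raw brightness did not fall, however: the median intensity was 136 on control and 293 on high fat arrays in subcutaneous fat (ratio 2.16), and 127 and 176 in visceral fat (ratio 1.38). Relative to the median of the 233 miRNAs it stood at -1.83 and -2.15 under the main scaling, -1.30 and -1.24 without scaling and -1.16 and -1.19 with the spike-ins, but at 0.22 and -0.03 with normexp. Its 2 probes gave like differences, of -1.79 and -1.71 in the subcutaneous depot.

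Bta-miR-25 shares its seed with bta-miR-92 and was also detected on every array, but it did not pass the test. In subcutaneous fat its scaled level was -1.99 to -1.28 (median -1.72) on the control diet and -1.97 to -1.63 (median -1.81) on the high fat diet. The visceral levels were -1.92 to -0.70 and -1.69 to -1.07. The groups overlapped in both depots. The differences were -0.14 (95% interval -0.43 to 0.14, adjusted p = 0.362) and -0.01 (95% interval -0.30 to 0.27, adjusted p = 0.976). With no scaling the median intensity rose 6.58-fold and 6.10-fold, and relative to the median of the 233 miRNAs bta-miR-25 lay between -1.85 and 1.29 in subcutaneous and -2.37 and 1.2 in visceral fat over the 8 scalings compared, so its direction depended on the scaling.

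Bta-miR-92b was the only member with lower unscaled values on the high fat diet, where the log2 difference was -0.92 in subcutaneous and -1.55 in visceral fat. It was detected on all 16 control arrays and on 7 subcutaneous and 5 visceral high fat arrays, with intensities of 2.19 to 15.3 and 5.36 to 15.4 on the control diet and 2.61 to 10.8 and 2.79 to 8.43 on the high fat diet. It passed the test as lower in subcutaneous fat, at -2.54 (standard error 0.283, adjusted p = 2.07e-09), and also in the visceral depot, at -3.09 (adjusted p = 3.06e-11). With the labelling spike-ins it stood at -0.66 in subcutaneous fat (adjusted p = 0.0663) and was not called there, and at -1.41 in visceral fat (adjusted p = 3.27e-04). The groups overlapped in subcutaneous fat, through 1 low control array, and not in visceral fat. Most high fat values lay below the floor, and with no floor and undetected values at their array's own limit the differences were -3.79 and -3.83. All these intensities are dim, and the total left out at least 1 of the 4 probes on 11 of the 12 high fat arrays that detected it, against 4 of 16 control arrays, so the high fat totals are too low by an amount not known here and neither value bounds the fall.

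**Figure D2:**
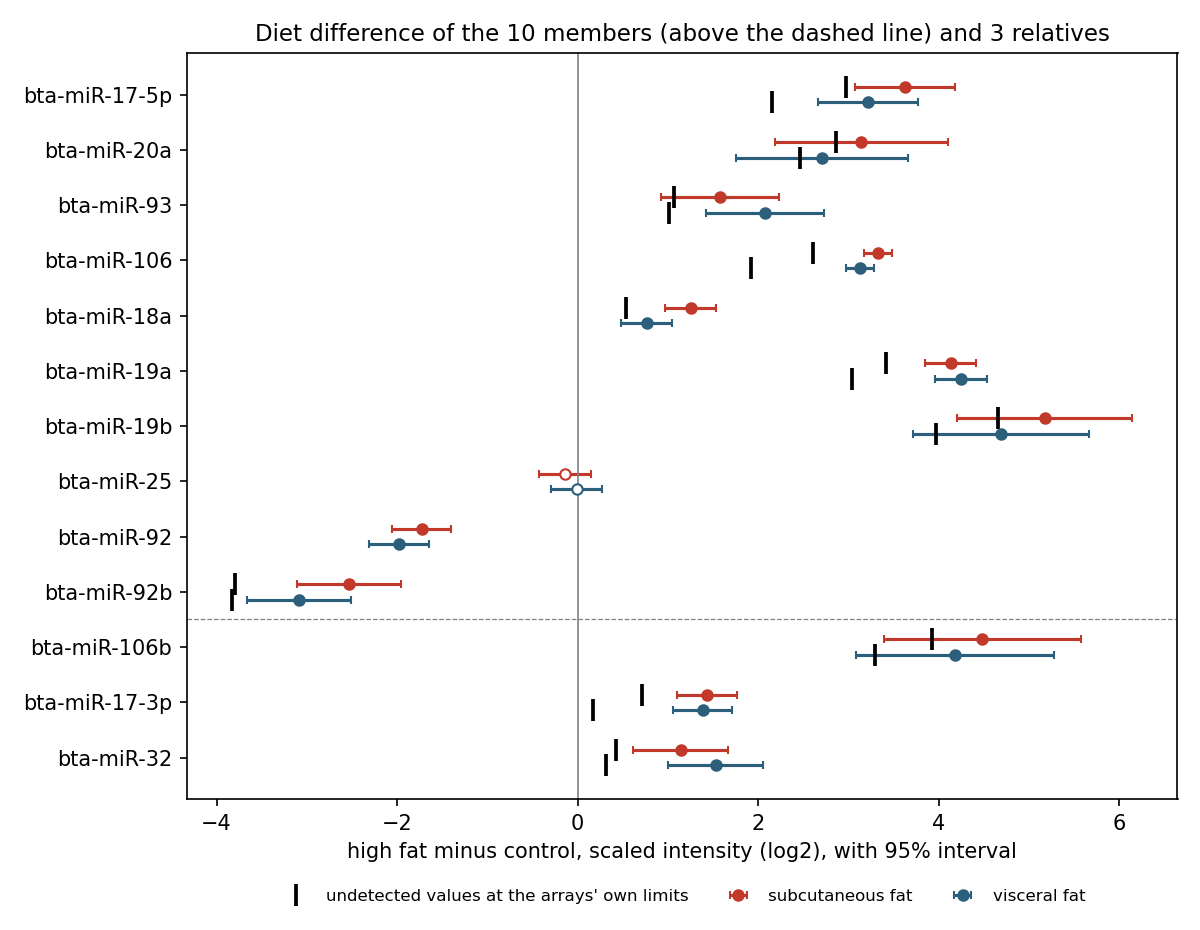
High fat minus control difference in scaled log2 intensity, with 95% intervals from limma, for the 10 members and 3 relatives in subcutaneous and visceral fat; filled points passed the test and black ticks are the differences with undetected values at their array's own detection limit. Points of the miR-17, miR-18 and miR-19 seeds sit between 0.76 and 5.17, bta-miR-25 at -0.14 and -0.01, and bta-miR-92 and bta-miR-92b between -3.09 and -1.73, under the main scaling only; signs change under the other scalings for the members named in the text.

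Relatives outside the 10 members were read in the same way. Of the 7 that share a locus or a seed with a member, 3 were tested, and these rose in both depots (41.6% and 42.1% of all tested miRNAs rose). Bta-miR-17-3p and bta-miR-32 were detected on high fat arrays only and entered the test through them. With control arrays at the floor, the direction of their difference was fixed in advance. Bta-miR-106b, with the miR-17 seed and next to bta-miR-93 and bta-miR-25 inside MCM7, was detected on 4 of 8 control arrays per depot and on all high fat arrays, and rose by 4.48 (adjusted p = 8.42e-09) and 4.18 (adjusted p = 3.33e-08), or 15.2-fold and 9.78-fold with undetected values at their array's own limit. Bta-miR-32, which carries the miR-25/92 seed, was detected on no control array and on all 16 high fat arrays, at intensities of 12.8 to 62.6 and 7.49 to 68.3. It rose by 1.14 (adjusted p = 2.21e-04) and 1.53 (adjusted p = 3.91e-06), or 1.34-fold and 1.25-fold with control arrays at their own limits. Its standard error of 0.258 is too small, since control arrays all at the floor add no spread. Within the miR-25/92 seed, then, bta-miR-32 was called higher, bta-miR-25 was not called and bta-miR-92 and bta-miR-92b were called lower. Bta-miR-20b of the X-linked copy was detected on 1 array in each high fat group, and bta-miR-18b, bta-miR-363 and bta-miR-367 on none.

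MiRNAs with neighbouring hairpins changed unequally, which can be read within an array, where any scaling factor cancels. The array's brightness cancels only where both miRNAs were detected. It does not where an own limit stands in for the numerator. For bta-miR-19b and bta-miR-93 the control totals also left out a probe more often than the high fat totals did. The ratio depends on how bright each probe is and is not a ratio of amounts, so only its change between arrays is described, with undetected numerators at their array's own limit and with no test. The log2 ratio of bta-miR-20a over bta-miR-92 ran from -4.73 to -2.15 on control and from 1.22 to 1.71 on high fat arrays in subcutaneous fat, and from -5.00 to -2.39 and 0.40 to 1.96 in visceral fat. The mean ratio increased 24.1-fold (subcutaneous) and 21.7-fold (visceral) with the high fat diet, with 1 of 8 control arrays undetected per depot. Bta-miR-19b over bta-miR-92 ran from -6.17 to -3.28 and from 1.62 to 2.23 in subcutaneous fat, and from -5.32 to -3.08 and from 0.72 to 2.48 in visceral fat. Control and high fat arrays were apart in both ratios and both depots. Since bta-miR-19b and bta-miR-92 also have a hairpin on chromosome X, their source was not resolved, and these 2 ratios need not compare products of 1 transcript.

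The MCM7 locus gave the same order. The log2 ratio of bta-miR-106b over bta-miR-25 ran from -5.26 to -3.02 on control and from 0.07 to 0.57 on high fat arrays in subcutaneous fat, and from -4.33 to -2.26 and -0.84 to 0.50 in visceral fat. Bta-miR-106b was undetected on 4 of 8 control arrays in each depot, which stand at their own limits, so no fold is given for this ratio. Bta-miR-93 over bta-miR-25 moved less. It ran from -4.26 to -3.02 on control and from -2.77 to -2.56 on high fat arrays in subcutaneous fat, and from -4.53 to -3.33 and -3.30 to -2.76 in visceral fat. These ranges met but did not overlap, and the control arrays nearest to the high fat arrays were ones that did not detect bta-miR-93. Of 8 control arrays, 2 in subcutaneous and 5 in visceral fat stand at own limits, which are no bounds, so a separation is not shown. The mean change was 1.21 and 1.02, and with normexp it was -0.94 and -0.88. The other 3 ratios were positive under normexp as well, but smaller, at 2.41 and 2.10 for bta-miR-20a over bta-miR-92.

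**Figure D3:**
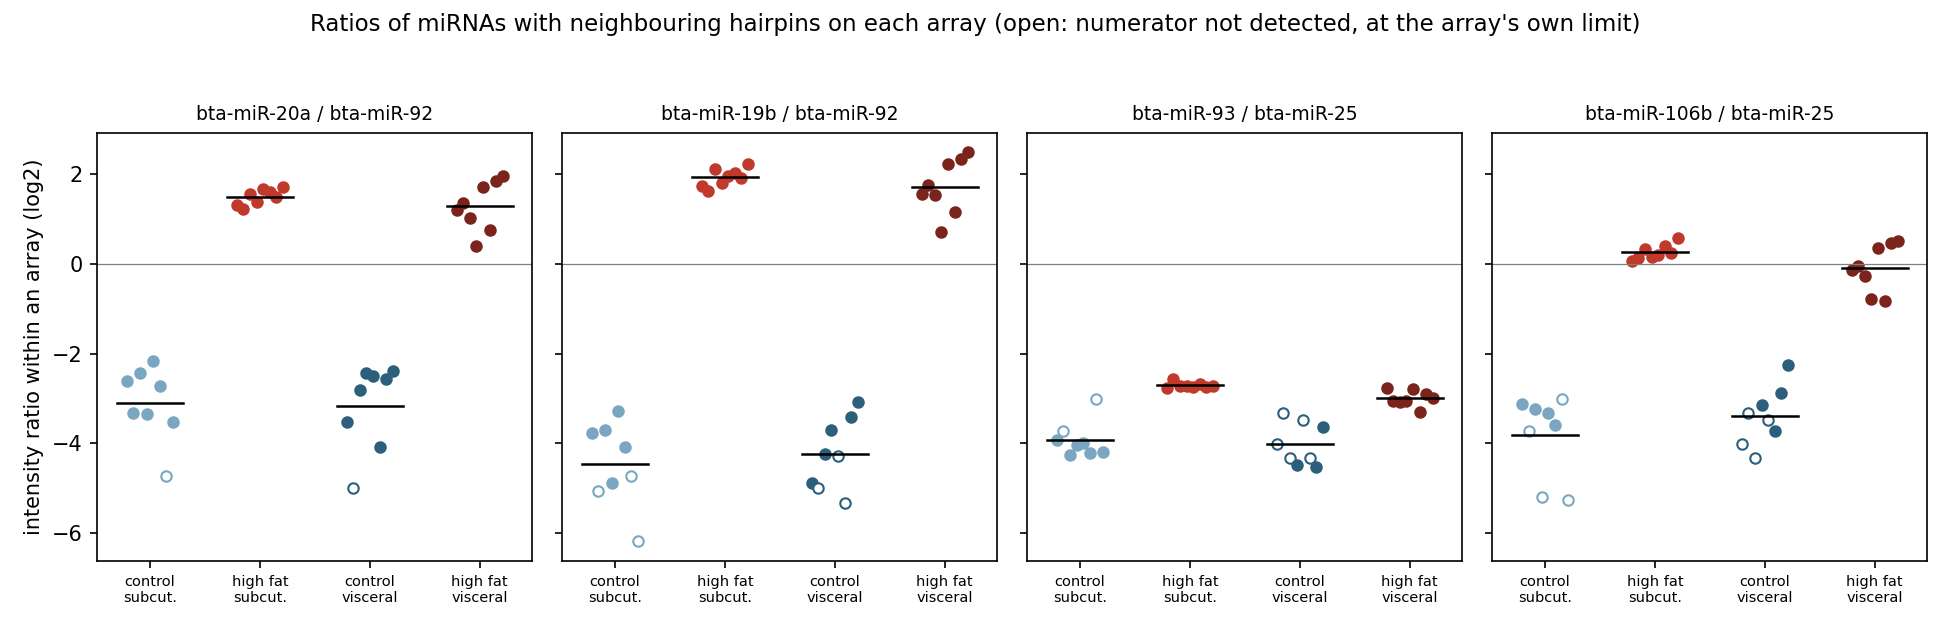
Log2 ratio of the intensities of a pair of miRNAs with neighbouring hairpins on each of the 32 arrays, by diet and depot, with means of 8 arrays as bars; open points had an undetected numerator, placed at the array's own detection limit. The 2 ratios over bta-miR-92 and that of bta-miR-106b over bta-miR-25 sit above the control arrays on all 16 high fat arrays, while bta-miR-93 over bta-miR-25 differs by 1.21 and 1.02 and turned negative with normexp.

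The scalings moved the members up or down largely together and left most of their order. In the 8 scalings compared, bta-miR-92b had the lowest diet difference of the 10 members, except with the deposited values in subcutaneous fat, where bta-miR-92 did, and the highest was always a miR-19 seed, bta-miR-19b or bta-miR-19a. All 7 members of the miR-17, miR-18 and miR-19 seeds lay above bta-miR-92 in each scaling other than normexp, where 6 of 7 did in both depots, with bta-miR-18a below. Above bta-miR-25 were all 7 in most scalings, 6 in visceral fat without scaling and with the spike-ins, and 3 and 2 with normexp.

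**Figure D4:**
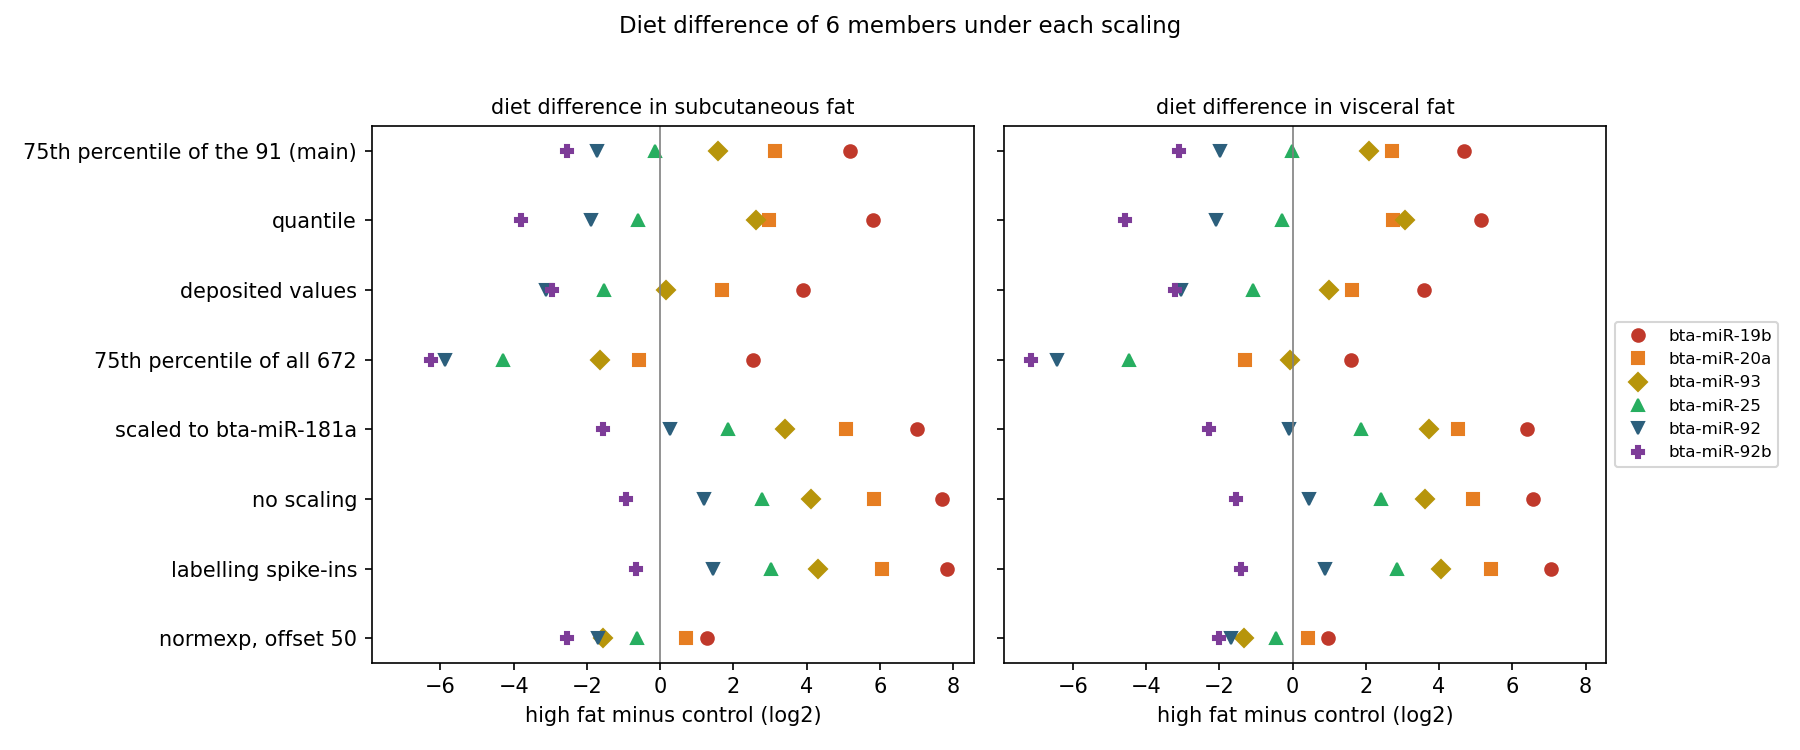
High fat minus control difference (log2, horizontal axis) of 6 members under 8 scalings (rows), in subcutaneous and visceral fat. Bta-miR-19b lies above 0 in every row and bta-miR-92b below 0 in every row, whereas bta-miR-92 and bta-miR-25 lie above 0 without scaling, with the labelling spike-ins and, except bta-miR-92 in visceral fat, with bta-miR-181a; bta-miR-93 lies below 0 with normexp, and bta-miR-20a and bta-miR-93 below 0 with the 75th percentile over all miRNAs of the array.

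Between depots the members differed little. On the control diet no member was called in limma (18.9% of all tested miRNAs were, 6.87% as higher in visceral fat), with 1 of 10 at an unadjusted p under 0.05 and 0 called by the methods' t-test. Bta-miR-92, at 0.40 higher in visceral fat (95% interval 0.06 to 0.73, adjusted p = 0.0964), had that unadjusted p. On the high fat diet 3 of 10 were called, against 26.2% of all, 1 higher (11.6% of all) and 2 lower (14.6% of all). The first, bta-miR-25, was higher in visceral fat by 0.39 (standard error 0.140, adjusted p = 0.0380), and bta-miR-18a and bta-miR-106 were lower, with differences of -0.49 (adjusted p = 0.00936) and -0.20 (adjusted p = 0.0449). Bta-miR-25 ranged from -1.97 to -1.63 in subcutaneous and -1.69 to -1.07 in visceral fat, and all 3 pairs of groups overlapped (6.01% of all tested miRNAs lay wholly higher in visceral fat and 3.43% wholly lower). For bta-miR-18a and bta-miR-106 the control arrays, all at the floor, lowered the pooled spread. With the steer as a block only bta-miR-18a was called (adjusted p = 0.0235), by the methods' t-test, with p-values adjusted after Benjamini and Hochberg, only bta-miR-25 (adjusted p = 0.00594), and with undetected values at each array's own limit none.

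Whether the depot difference itself changed with diet was tested as an interaction. No member was called in limma, where 1.72% of the tested miRNAs were (0.429% higher and 1.29% lower), and 1 of 10 had an unadjusted p under 0.05. The widest point estimates were -0.55 for bta-miR-92b (95% interval -1.37 to 0.26), 0.50 for bta-miR-93 (-0.42 to 1.43) and -0.49 for bta-miR-18a (-0.89 to -0.09, adjusted p = 0.250). Bta-miR-18a, like bta-miR-106, was detected on no control array, so the floor fixed its depot difference on that diet. Its value is the high fat depot difference alone, and its interval is too narrow.

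Among the 16 high fat arrays, where 8 members and bta-miR-106b were detected throughout, deviations from the group means were alike in some pairs and not in others. The sets below were read off these values and are described with no test. Bta-miR-19a, bta-miR-19b, bta-miR-20a and bta-miR-106b varied together, with Pearson's r of 0.85 to 0.96 over the 6 pairs (Spearman's rho 0.79 to 0.96, and r of 0.82 to 0.96 without the 2 arrays farthest from the median). Bta-miR-17-5p, bta-miR-106 and bta-miR-93 had r of 0.64 to 0.82 among themselves (rho 0.64 to 0.74, and 0.58 to 0.76 without 2 arrays), and bta-miR-92 and bta-miR-25 had r of 0.85 (rho 0.81, and 0.74 without 2 arrays). Between the first and the second set, r was 0.07 to 0.60, and between the first and the third -0.55 to 0.18. The second and the third were not apart, with r of 0.45 to 0.75 between them (0.41 to 0.79 without 2 arrays), the highest for bta-miR-93 and bta-miR-25, which both lie inside MCM7. Among miRNAs with a hairpin on chromosome 12, r was 0.21 between bta-miR-17-5p and bta-miR-19a and -0.50 between bta-miR-19a and bta-miR-92, while bta-miR-19a and bta-miR-106b, from different chromosomes, had r of 0.94. The points share their arrays and scaling. The correlation of each of these 9 miRNAs with the array's summed intensity was between -0.09 and 0.38, and without the 2 arrays farthest from the median between 0.013 and 0.54, with 0.54 for bta-miR-93 and 0.52 for bta-miR-25.

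Over all 32 arrays, the miRNAs whose deviations from the group means were most like those of bta-miR-20a, among 91 detected on every array, were bta-miR-195 (r = 0.81), bta-miR-26b (r = 0.76) and bta-miR-126 (r = 0.74). Bta-miR-20a was undetected on 2 control arrays and set to -7.22, far below the next values of their groups (-4.45 and -4.58). These r values lean on those 2 arrays and were not computed without them. Those most like bta-miR-92, among 90, were bta-miR-320 (r = 0.79), bta-miR-2288 (r = 0.78) and bta-let-7c (r = 0.78). Those detected on every array include 2 members, bta-miR-92 and bta-miR-25, so the other members could not be named by this search.

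MiRNAs that mark other cell types moved with diet beside the members. The endothelial pair bta-miR-126 and bta-miR-126* rose in both depots (2 of 2, where 41.6% and 42.1% of all tested miRNAs rose), and their summed scaled level went from 0.578 to 1.501 on control to 3.57 to 4.84 on high fat arrays in subcutaneous fat, and from 0.863 to 2.42 to 5.09 to 8.23 in visceral fat. Of the white blood cell list, 4 of 5 were tested. Bta-miR-142 was detected on no control array and entered the test through high fat arrays, so its direction was fixed in advance. It rose by 4.24 and 4.09, while bta-miR-155 differed by -1.24 and -1.57 and was called lower. Bta-miR-146b was called higher in visceral fat, at 0.95 (adjusted p = 0.0190), and bta-miR-223 lower, at -0.72 (adjusted p = 0.0334), and neither was called in subcutaneous fat, at 0.44 and 0.10. Bta-miR-146b was detected on no control array either, and these arrays at the floor fixed its direction in advance and lowered its pooled spread. The summed level of that list overlapped between diets, at 0.164 to 0.455 against 0.227 to 1.01 in subcutaneous and 0.174 to 0.404 against 0.213 to 0.340 in visceral fat. Of the red blood cell list, bta-miR-451 rose by 2.88 and 2.65, bta-miR-486 was called lower at -2.61 and -2.56, and bta-miR-144 was not tested. Their sum was 0.109 to 0.198 on control and 0.0690 to 0.135 on high fat arrays in subcutaneous fat, and 0.191 to 0.368 and 0.0674 to 0.134 in visceral fat. All 5 of the fat tissue list were detected on at least 1 array of every group. Of these, 3 were called higher in both depots (41.6% and 42.1% of all tested miRNAs were). In subcutaneous fat 1 was called lower (bta-miR-378, -0.64, adjusted p = 0.00124), where 34.3% of all were. Their sums were 1.58 to 3.06 on control and 2.03 to 2.54 on high fat arrays in subcutaneous fat, and 2.67 to 4.87 and 2.69 to 5.16 in visceral fat. The muscle list summed to 0 to 0.0291 (median 0) on control and 0.0178 to 0.228 (median 0.0366) on high fat arrays in subcutaneous fat, and to 0 to 0.133 (median 0.00635) and 0.0475 to 0.0912 (median 0.0596) in visceral fat. Of its 3 tested members, bta-miR-1 was called higher in both depots, at 2.01 (adjusted p = 3.34e-05) and 2.22 (adjusted p = 7.60e-06). Its control subcutaneous arrays, all at the floor, fixed its direction in that depot in advance and lowered the pooled spread. The part of these cell types in the members' differences was not tested.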

How the data were processed

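Total RNA of each fat sample was labelled with Cy3 and hybridized to an Agilent array of bovine miRNAs with 20 spots each. The authors extracted each array with Feature Extraction 10.7.3.1 and deposited spot intensities and background-subtracted intensities summed per miRNA over the detected probes, without scaling, and a log2 table (75th percentile, undetected values low). The intensities per miRNA were used here; the deposited log2 values served as an alternative, and matched them for 244 of 244 listed miRNAs within 1e-05 after each array's shift. Detection calls were taken from the deposited files.

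Arrays were scaled to their 75th percentile, taken across the 91 miRNAs that every array detected, values under the floor (0.00669 on the scaled intensity, log2 -7.22) were set to it, and 233 miRNAs detected on at least 8 arrays and not at the floor throughout were fitted with limma 3.58.1 (R 4.3.3), as 1 mean per group over 32 arrays. The fit was tested on simulated data. Folds at own limits used each array's lowest detected intensity over all miRNAs and are no lower bounds. Intensities are not counts, and the number of arrays, 8 steers per group, limits the precision. The study's methods' t-test was an alternative.

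Both depots came from the same steer by the titles, which pairs the samples. Deviations of the 2 depots of a steer correlated between -0.39 and 0.65 (median -0.14 for control and 0.16 for high fat steers). The members and lists were chosen with earlier results of these data known: the 10 members, the 7 relatives, bta-miR-181a, 4 within-array ratios, the 3 miRNAs most alike and the marker lists. Other miRNAs are named only where these rules give them. A planned comparison with base composition was not run.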

Additional observations from a re-analysis of the deposited data

Results flagged for a closer look

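Among the 34 member and group combinations of 8 arrays that had any spread, 5 had a lowest or highest array whose gap to the next, as a share of the group's range, exceeded Dixon's 95% critical value. Chance gives about 1 in 20 for measured values, a rate that does not apply here, since 4 of the 5 rest on values placed at the floor. Bta-miR-20a was not detected on the control subcutaneous array of steer 405 and the control visceral array of steer 111, which stand at the floor of -7.22. The next values were -4.45 and -4.58. These 2 arrays detected the fewest miRNAs of their groups, 118 and 115, against medians of 159 and 128.5, and their summed intensities ranked 1 and 2 from the dimmest of 8. With each array left out in turn, the diet difference of bta-miR-20a was between 2.72 and 3.25 in subcutaneous and between 2.23 and 2.85 in visceral fat.

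Bta-miR-92b had 1 low control subcutaneous array, of steer 307, at -7.00 with the next at -5.28. That array detected 160 miRNAs, near its group's median of 159. In both high fat groups bta-miR-92b had 1 array above the floor and the other 7 tied at it, so that the gap is the whole range by construction, at -6.93 for steer 109 in subcutaneous and -6.95 for steer 202 in visceral fat.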

How the results depend on the processing

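The directions of the diet differences rest on the scaling, and slide and scan day cannot be told apart from diet. Before scaling the detection limits were alike (medians 2.50 and 2.79 on control and 2.52 and 2.64 on high fat arrays), but scaled they were higher on control arrays, at medians of -6.79 and -5.85 against -9.52 and -8.50, and the fit sets undetected control values to -7.22. Normexp added its offset of 50 to spot signals, which are on another scale than the intensities summed per miRNA. With it, 2 members were called higher and 8 lower in each depot, in place of 7 and 2. The differences in subcutaneous and visceral fat turned to -0.82 and -0.83 for bta-miR-17-5p, -2.002 and -1.70 for bta-miR-18a, -0.61 and -0.55 for bta-miR-19a, -1.16 and -1.15 for bta-miR-106 and -1.57 and -1.32 for bta-miR-93, and the change of bta-miR-93 over bta-miR-25 to -0.94 and -0.88. With the 75th percentile over all miRNAs of the array, 4 and 3 members were called higher. Bta-miR-20a stood at -0.59 and -1.29 and bta-miR-93 at -1.66 and -0.066, and these differences were not called. Bta-miR-92 stood at 1.18 and 0.44 without scaling, where the visceral value was not called (limma, adjusted p = 0.104), and at 1.44 and 0.89 with the spike-ins. Divided by bta-miR-181a it stood at 0.28 in subcutaneous fat and was not called there (limma, adjusted p = 0.112). For bta-miR-25 the values were 2.77 and 2.41 without scaling, 3.02 and 2.86 with the spike-ins and 1.86 and 1.87 with bta-miR-181a. Members called lower then numbered 1 in each depot without scaling and with bta-miR-181a, and 0 in subcutaneous and 1 in visceral fat with the spike-ins, where bta-miR-92b stood at -0.66 and -1.41. With undetected values at their array's own limit, the visceral difference of bta-miR-18a was -0.41. Restricting the fit to the miRNAs detected on all arrays left 2 members, of which 0 were called higher and 1 lower in each depot. The causes of these changes were not tested. Quantile normalization, the deposited values, spot intensities, a floor at an intensity of 1, no filter and the methods' t-test turned no diet difference of a member.

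For the depots, 1 member was called higher on the control diet with spot intensities (bta-miR-106) and 1 with own limits (bta-miR-17-5p). Neither call compares detected values throughout. Bta-miR-106 was detected on no control array. Bta-miR-17-5p was detected on 2 control subcutaneous and 3 control visceral arrays. Its other values were the arrays' limits, which were higher in visceral fat (medians -6.79 and -5.85). On the high fat diet, 0 were called higher with the percentile over all miRNAs of the array, no scaling, the spike-ins, bta-miR-181a, the deposited values, own limits, the floor at 1 and the Bonferroni-corrected t-test of the methods, and 6 with normexp. There, 0 were called lower with the percentile over all miRNAs, normexp, spot intensities, the deposited values, own limits, the floor at 1, the fit to miRNAs detected on all arrays and both forms of the t-test, and 6 without scaling. Bta-miR-18a and bta-miR-106 turned to 0.58 and 0.28 with normexp, and bta-miR-25 to -0.47 without scaling and -0.12 with the spike-ins. The depot difference differed between diets, lower, for 2 members without scaling (bta-miR-18a and bta-miR-106).

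With the steer as a replicate block, members called between depots on the high fat diet were 0 higher and 1 lower, in place of 1 and 2, and the block changed no other call of a member.

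With 1 array left out at a time, 7 members were called higher and 2 lower in each diet comparison throughout. Members called between depots numbered 0 to 1 higher on the control diet, and 0 to 1 higher and 1 to 2 lower on the high fat diet. The visceral diet difference of bta-miR-25 lay between -0.088 and 0.087, and no other member's diet difference changed sign. The within-array ratios used each array's own limits. A common floor in their place was chosen after seeing the data and changed no direction. The comparison with base composition was not run.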
